A study of Mus musculus with 158 samples.

Results

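Open chromatin of mouse liver was compared with that of mouse kidney, hybrid by hybrid, in the 10 deposited sets of DNase I hotspots of these organs, 5 per organ, out of 20 sets of adult tissues. DNase-seq sequences the ends of short fragments that DNase I releases from nuclei, and a hotspot is a stretch of the genome where such ends are enriched. The mice were F1 hybrids of C57BL/6J mothers and fathers of 5 strains, named B6x129, B6xC3H, B6xCAST, B6xPWK and B6xSPRET, where C3H stands for C3H/HeJ, CAST for CAST/EiJ, PWK for PWK/PhJ and SPRET for SPRET/EiJ. The study's text gives the paternal strain of B6x129 under 2 names, so that label is kept as it stands. No treatment or engineered allele is given for any of them. They were collected at 8 weeks of age, and tissue was typically pooled from 4 mice. B6x129 and B6xC3H hybrids were bought as females and the other hybrids were bred on site. The whole liver, all lobes, and both kidneys were used, so every set mixes the cell types of its organ. Each set pools all libraries of its hybrid and organ, 43 in liver and 37 in kidney (6 to 14 per liver set and 2 to 14 per kidney set), 80 of the 158 libraries of the series. The hybrid was therefore the unit of comparison, and hybrids are listed in the order B6x129, B6xC3H, B6xCAST, B6xPWK and B6xSPRET throughout. The autosomes held 2221147 hotspots in the 10 sets, which merged into 511941 sites.

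Hepatocytes and the proximal tubule of the kidney share much of their metabolism. Both make glucose, break down amino acids, oxidise fatty acids and conjugate or oxidise foreign compounds, and both take up organic anions and cations from the blood. They differ in where the products go, since the hepatocyte secretes plasma proteins and bile while tubule cells reclaim salts, sugars and amino acids from the filtrate. HNF4A is a transcription factor used in both organs, FOXA and ONECUT (HNF6) factors are best known from liver, and PAX2, PAX8 and POU3F3 from the kidney. In bulk tissue, fewer cells of a type and less open chromatin per cell cannot be told apart.

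A site was called liver-only when it was open in all 5 liver sets and in no kidney set, and kidney-only in the opposite case. Sequences of 8 such sites at or near 5 genes of metabolism and transport are given below. Sites of both classes are given at Pck1, Slc1a1 and Slc5a1, a liver-only site at Ass1 and a kidney-only site at Scnn1a. The sites were chosen after the values and motif matches had been seen. Each sequence is 200 bp at the centre of the stretch open in all 5 sets of its organ. It lies in the widest site of its class within 10 kb of the gene, in mm10 (GRCm38), on the strand of the gene. Capitals mark motif matches: ATCGAT for HNF6, TGTTTAC for FOXA, ACATTCC for TEAD, AACCGG for GRHL and TFCP2L1, CCAAT for NFY and TTTATNG for HOXB13-type HOX, each searched on both strands, so the reverse complement is in capitals too.
Pck1 liver-only site, chr2:173143756-173143955, + strand: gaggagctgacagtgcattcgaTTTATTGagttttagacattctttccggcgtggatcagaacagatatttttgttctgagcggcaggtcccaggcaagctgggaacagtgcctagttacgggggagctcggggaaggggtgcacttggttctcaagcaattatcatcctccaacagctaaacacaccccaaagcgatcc
Pck1 kidney-only site, chr2:173165072-173165271, + strand: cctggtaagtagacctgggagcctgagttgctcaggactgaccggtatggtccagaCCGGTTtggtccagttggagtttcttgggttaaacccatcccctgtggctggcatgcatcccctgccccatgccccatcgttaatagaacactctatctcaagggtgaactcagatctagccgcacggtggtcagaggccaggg
Ass1 liver-only site, chr2:31530274-31530473, + strand: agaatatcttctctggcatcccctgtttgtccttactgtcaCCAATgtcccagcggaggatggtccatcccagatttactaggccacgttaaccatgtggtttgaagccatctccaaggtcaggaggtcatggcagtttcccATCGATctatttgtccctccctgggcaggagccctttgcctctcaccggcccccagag
Slc1a1 liver-only site, chr19:28869258-28869457, + strand: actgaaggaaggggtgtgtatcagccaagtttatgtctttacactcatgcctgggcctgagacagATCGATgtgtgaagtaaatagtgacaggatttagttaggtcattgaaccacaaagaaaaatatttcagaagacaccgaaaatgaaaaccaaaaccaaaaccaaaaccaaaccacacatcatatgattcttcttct
Slc1a1 kidney-only site, chr19:28854891-28855090, + strand: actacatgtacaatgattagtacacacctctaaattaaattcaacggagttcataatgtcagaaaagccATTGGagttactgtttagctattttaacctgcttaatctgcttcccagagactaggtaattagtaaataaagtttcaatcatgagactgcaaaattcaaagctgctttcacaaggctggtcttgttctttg
Slc5a1 liver-only site, chr5:33096345-33096544, + strand: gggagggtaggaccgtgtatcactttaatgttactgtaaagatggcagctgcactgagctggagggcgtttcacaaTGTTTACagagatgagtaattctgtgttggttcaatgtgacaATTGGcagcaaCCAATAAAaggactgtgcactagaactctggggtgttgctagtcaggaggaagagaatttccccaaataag
Slc5a1 kidney-only site, chr5:33107878-33108077, + strand: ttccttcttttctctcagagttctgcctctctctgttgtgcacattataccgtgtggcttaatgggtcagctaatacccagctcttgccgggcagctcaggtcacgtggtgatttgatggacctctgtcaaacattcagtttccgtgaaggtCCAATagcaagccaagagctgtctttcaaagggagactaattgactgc
Scnn1a kidney-only site, chr6:125320446-125320645, + strand: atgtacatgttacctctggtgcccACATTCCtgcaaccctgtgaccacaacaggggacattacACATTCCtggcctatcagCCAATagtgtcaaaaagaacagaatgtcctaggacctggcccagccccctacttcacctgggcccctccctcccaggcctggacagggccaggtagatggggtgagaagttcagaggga

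Pck1, the rate-limiting enzyme of gluconeogenesis, had sites of both classes on opposite sides of the gene. The liver-only site was centred 9.19 kb upstream of its start and held TTTATTG, while the kidney-only site was centred 12.1 kb downstream of the start, beyond the gene, and held the reverse complement of AACCGG. Sites of both classes also lay within introns of Slc1a1, a glutamate transporter. The kidney-only site was centred 19.9 kb and the liver-only site 34.3 kb downstream of its start, with ATCGAT in the liver-only site. At Slc5a1, the sodium-glucose cotransporter SGLT1, the liver-only site lay 7.77 kb upstream and held TGTTTAC, and the kidney-only site lay in an intron. Ass1 of the urea cycle had ATCGAT in the widest of its 3 liver-only sites, centred 60.2 kb downstream of its start. The kidney-only site centred 0.113 kb upstream of Scnn1a, a subunit of the epithelial sodium channel, held ACATTCC at 2 positions. Of all autosomal windows of 200 bp without gaps, 0.821% held ATCGAT, 2.98% TGTTTAC, 2.71% ACATTCC, 1.14% AACCGG, 29.1% CCAAT and 12.5% TTTATNG. A match describes the letters and is no evidence of a bound factor.

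In every hybrid the liver set held more hotspots and covered more of the genome than the kidney set, but the ranges of the organs overlapped. Liver sets held 286482, 208852, 226868, 235351 and 205195 hotspots, and kidney sets held 232440, 197586, 222467, 224834 and 181072. The means were 232550 ± 32629 and 211680 ± 21540 (SD, n = 5 each), and an exact two-sided permutation test over all splits of the 10 sets gave p = 0.286. Liver hotspots covered 94.2 ± 19.1 Mb and kidney hotspots 76.5 ± 8.42 Mb (exact permutation p = 0.0873), with B6x129 liver the highest at 125.7 Mb. Exchanging organ labels within hybrids, the smallest p that an exact permutation test of 5 hybrids allows is 0.063, which both measures reached. The study's tables list more analysed reads for liver than for kidney in each hybrid. Reads per set are not in the hotspot files, and the part of depth in these differences was not tested.

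Hotspots at the score ceiling (a −log10 FDR of 100, the strongest value a set can give) were more frequent in liver. They made up 13.03, 13.3, 13.1, 14.3 and 8.97% of liver hotspots and 3.40, 4.37, 6.16, 4.94 and 3.53% of kidney hotspots. No kidney set reached the lowest liver set (12.6 ± 2.07% against 4.48 ± 1.13%, n = 5 each, exact permutation p = 0.00794, the smallest the splits can give). Of these ceiling hotspots, 97.7 ± 1.39% in kidney but 79.8 ± 4.35% in liver overlapped a hotspot of the other organ in the same hybrid (n = 5 each, exact permutation p = 0.00794). The ceiling takes a larger share of hotspots in liver than in kidney, so these are not hotspots of equal rank, and liver sets also hold more hotspots to overlap.

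**Figure D1:**
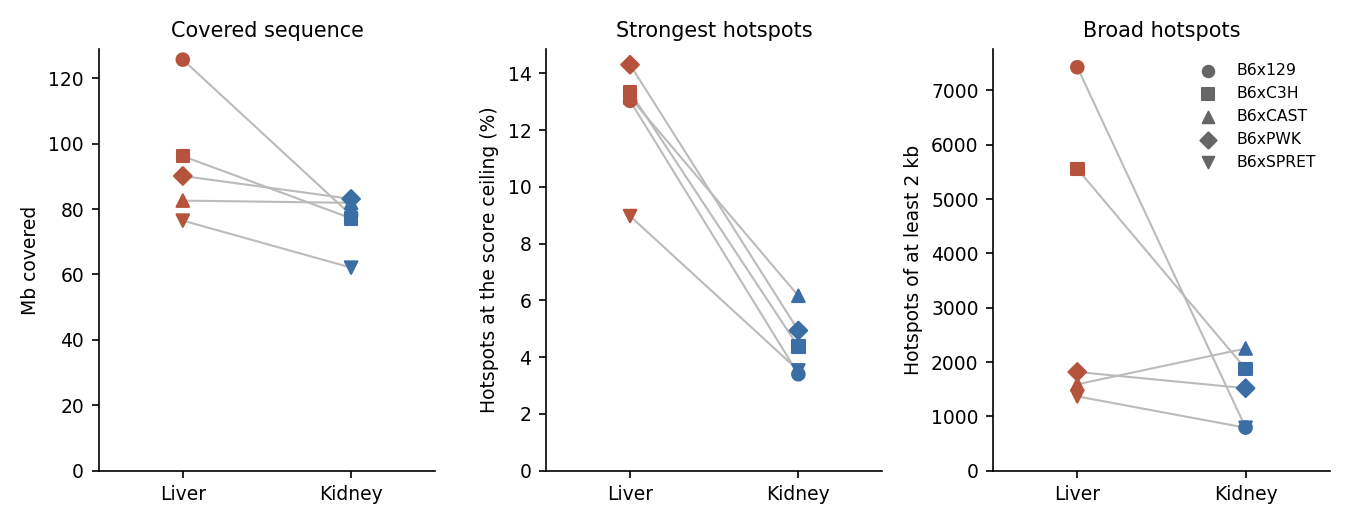
Megabases covered by hotspots, percent of hotspots at the score ceiling and number of hotspots of at least 2 kb in the 10 sets; points are sets, shape marks the hybrid, and grey lines join the liver and kidney sets of a hybrid. B6x129 liver is the highest in covered sequence, 125.7 Mb, the ceiling shares of the organs do not overlap, and the 7426 and 5557 broad hotspots of B6x129 and B6xC3H liver stand above all other sets.

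Of all hotspots, 43.9, 47.3, 50.3, 49.1 and 45.8% in liver overlapped a kidney hotspot of the same hybrid, and 60.9, 53.3, 50.02, 51.8 and 52.6% in kidney overlapped a liver hotspot. The kidney share was higher in 4 of 5 hybrids, B6xCAST being the exception, with means of 53.7 ± 4.21% and 47.3 ± 2.56% (n = 5 each, exact permutation p = 0.0159). Within hybrids the test gave p = 0.125, and with equal numbers of hotspots per set (the 150000 highest-scoring) the difference shrank from −6.44 to −1.64 percentage points (exact permutation p = 0.373). Liver and kidney sets of the same hybrid were slightly more alike than those of different hybrids. The base-pair Jaccard index, the shared length over the joint length, was 0.335 ± 0.00979 for 5 matched pairs and 0.327 ± 0.0118 for 20 unmatched pairs (exact one-sided permutation test over 120 pairings, p = 0.0417), against 0.616 ± 0.0529 among liver sets and 0.639 ± 0.0240 among kidney sets. The matched difference lost its call when any hybrid other than B6x129 was left out, with values in the closing section.

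Among the 511941 merged sites, 33252 (6.50%) were liver-only, 25509 (4.98%) were kidney-only and 65208 (12.7%) were open in all 10 sets. Sites open in a single set were the commonest, with 119100 in a liver set and 76605 in a kidney set. The classes follow from how sites were counted and were not tested. Liver-only sites had a median width of 444 bp, kidney-only sites 411 bp and sites open in all 10 sets 764 bp. Introns held 48.2% of liver-only and 44.1% of kidney-only sites, and 39.0% and 43.6% lay outside protein-coding genes. On every autosome liver-only sites outnumbered kidney-only sites, by 1.19-fold on chromosome 11 to 1.67-fold on chromosome 19.

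**Figure D2:**
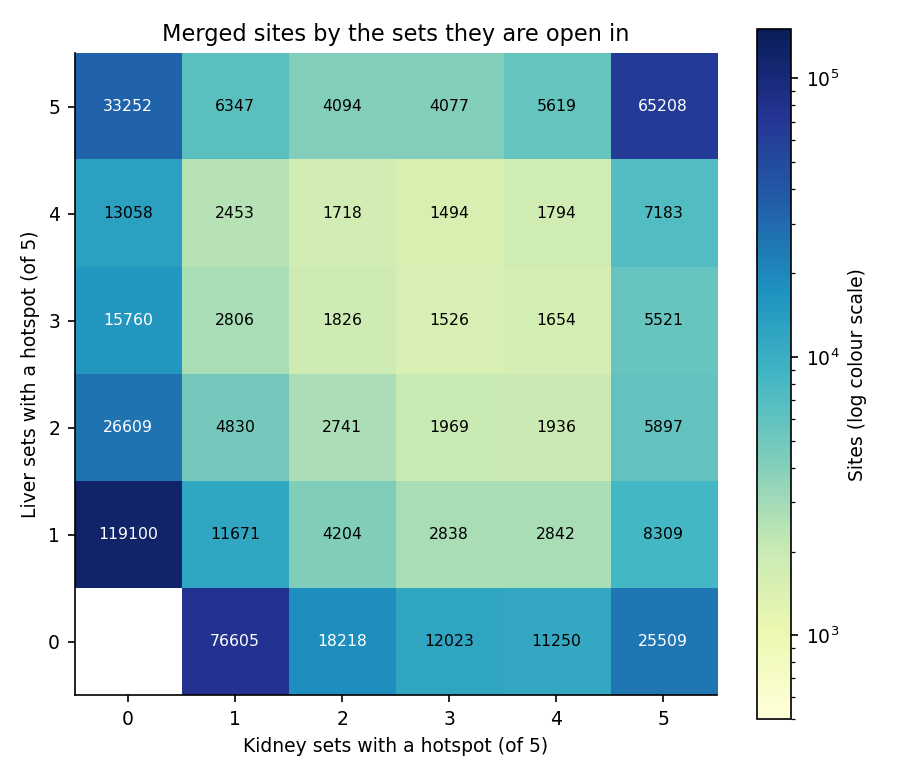
Number of merged sites open in each combination of liver sets (0 to 5) and kidney sets (0 to 5), with a log colour scale. The corners hold 33252 liver-only, 25509 kidney-only and 65208 shared sites, and the 119100 sites of a single liver set are the largest cell.

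Organ-restricted sites were seldom at gene starts. Within 1 kb of a protein-coding gene start lay 1.64% of liver-only and 1.94% of kidney-only sites, against 17.8% of sites open in all 10 sets. The share was 4.45% over all merged sites. Sites open in a single liver set (2.08%) or a single kidney set (2.47%) were low as well. Of 20807 autosomal protein-coding genes, 12227 had a start open in all 10 sets, 276 (1.33%) a start open in all liver and no kidney sets, and 291 (1.40%) the opposite. Among the listed genes, starts open in liver alone included Cyp7a1, Tat, Ahsg, Hpx, Cps1, Tdo2, Abcb11 and Hnf4a, and starts open in kidney alone included Aqp2, Slc12a1, Slc5a2, Slc5a12, Slc22a12, Slc34a3, Bsnd and Kap. Over all hotspots, gene starts took 8.47 ± 0.999% in liver and 9.56 ± 0.594% in kidney (n = 5 each, exact permutation p = 0.0397), a difference no longer past 0.05 within hybrids (exact permutation p = 0.063) or with 5 kb either side (exact permutation p = 0.548).

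The strength of organ-restricted sites differed between the organs when read within each set. In liver sets, 6.22 to 15.8% of the hotspots in liver-only sites were at the ceiling, close to the 8.97 to 14.3% of all liver hotspots. In kidney sets, 0.0556 to 0.776% of the hotspots in kidney-only sites were at the ceiling, below the 3.40 to 6.16% of all kidney hotspots in every set. These shares are a description, since both classes were chosen by presence in the same sets.

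For each gene, the base pairs covered by hotspots in the gene and 10 kb on each side were compared between organs, with the hybrid in the model. Of 19573 genes tested with limma, 6463 (33.0%) were covered more in liver and 2621 (13.4%) more in kidney at an adjusted p of 0.05. The median log2 difference over all genes tested was 0.22 toward liver, and −0.04 when every set was scaled to the same total. Scaling left 4828 of the liver calls (24.7% of genes tested) and raised the kidney calls to 5546 (28.3%), among them all 2621 above, and no gene changed sides. The split of calls was thus 71.1% liver as deposited and 46.5% liver when scaled. In 23.2% of 20807 genes every liver set was above every kidney set, and in 6.02% the opposite held. A gene had at least 1 liver-only site in 49.3% of cases, at least 1 kidney-only site in 38.7% and both in 24.0%. Fold changes below are on the scale of log2(bp + 100), which understates the change of thinly covered loci, and neighbouring genes share part of their windows. The gene lists and pairs below were chosen with earlier results of these data known.

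Genes of metabolism used in both organs were covered more in liver in nearly every case. Of 41 such genes, 37 were called for liver, 2 (Gatm and Ggt1) for kidney and 2 (Prodh2 and Upb1) for neither. Among all genes tested, 33.0% were called for liver and 13.4% for kidney. The median log2 difference of the 41 was 1.26, against 0.22 over all genes. After scaling the counts were 33, 2 and 6 and the median 0.98, with 24.7% and 28.3% of all genes tested called for liver and kidney. The starts of 39 of the 41 were open in all 10 sets. Coverage was summed over the gene and 10 kb on each side, so it does not place the difference within that window. At least 1 liver-only site was found at 33 of the 41 (80.5%), against 49.3% of all genes. At least 1 kidney-only site was found at 12 (29.3%), against 38.7% of all genes. The median span of the 41 was 24.6 kb, against 17.6 kb over all genes, and the part of gene length in these shares was not tested.

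All 8 genes of gluconeogenesis and fructose use were called for liver, with a median log2 difference of 1.08. Pck1 (chr2:173153048-173159273) was covered by 13782, 14155, 12446, 13306 and 12403 bp in liver and 4923, 8012, 12548, 9713 and 3346 bp in kidney. B6xCAST kidney reached into the liver range and the other 4 kidney sets were lower (log2 difference 0.92 ± 0.23 SE, adjusted p = 0.00772). Its call was lost with windows of 50 kb (0.23, adjusted p = 0.242), without the filter on covered genes (adjusted p = 0.0618), and when hotspots were counted in place of base pairs (−0.042). G6pc (chr11:101367561-101377903), glucose-6-phosphatase, the last step of glucose release, was covered by 14785, 10657, 11032, 18018 and 8318 bp in liver and 4017, 3404, 3827, 4331 and 3666 bp in kidney. Every liver set was above every kidney set (1.63 ± 0.15, adjusted p = 1.08e-05).

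Fbp1, fructose-1,6-bisphosphatase, was covered by 34560, 31447, 28453, 35443 and 7634 bp in liver and 7088, 6955, 7103, 10211 and 5047 bp in kidney. B6xSPRET liver stood apart from the other liver sets, inside the kidney range (log2 difference 1.76 ± 0.21, adjusted p = 7.14e-05), and the number of hotspots did not differ past the threshold (0.27, adjusted p = 0.413). Pcx, Khk, Tkfc and Glyctk had log2 differences of 0.58 to 1.13.

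In amino acid breakdown and the urea cycle, 14 of 17 genes were called for liver and 1 for kidney, with a median log2 difference of 1.19. Gldc of glycine cleavage held 10 liver-only sites and Dpys of pyrimidine breakdown 8, with 0 and 4 kidney-only sites. Gatm, which makes the creatine precursor guanidinoacetate, went the other way. It was covered by 1284, 715, 840, 979 and 885 bp in liver and 2654, 1712, 2574, 2678 and 1457 bp in kidney, so that every kidney set was above every liver set (−1.14 ± 0.19, adjusted p = 0.000694). Its call was lost with windows of 50 kb (−0.25, adjusted p = 0.208). Gamt, the next enzyme of creatine synthesis, was covered more in liver, at a mean of 11924 bp against 3893 bp (adjusted p = 0.000131).

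All 8 genes of fatty acid oxidation and ketogenesis were called for liver, with a median log2 difference of 1.43, and each held at least 1 liver-only site. Fabp1, the fatty acid-binding protein of liver, was covered by 14723, 13571, 11685, 12615 and 12138 bp in liver and 1212, 1141, 1052, 1017 and 964 bp in kidney. Its liver mean was 12.02-fold the kidney mean (3.47 ± 0.14, adjusted p = 9.41e-08), and its start was open in all 10 sets. Cpt1a and Ehhadh had the smaller differences of 0.69 and 0.55.

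Of 8 genes of detoxification and related steps, 7 were called for liver. Cyp2e1, the ethanol-inducible cytochrome P450, was covered by 19333, 17274, 15380, 16852 and 15784 bp in liver and 1366, 3317, 2306, 2784 and 1558 bp in kidney, without overlap (2.92 ± 0.20, adjusted p = 1.42e-06). Cat, catalase, was covered by 26740 to 41909 bp in liver and 4005 to 8747 bp in kidney (2.51 ± 0.20, adjusted p = 4.38e-06). Ggt1 (chr10:75561604-75586200), the brush-border enzyme that cleaves glutathione, was the exception. It was covered by 4399, 2792, 2246, 2518 and 2075 bp in liver and 9269, 7581, 7527, 9987 and 4532 bp in kidney, and held 5 kidney-only and 0 liver-only sites. Every kidney set was above every liver set (−1.44 ± 0.17, adjusted p = 5.09e-05).

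**Figure D3:**
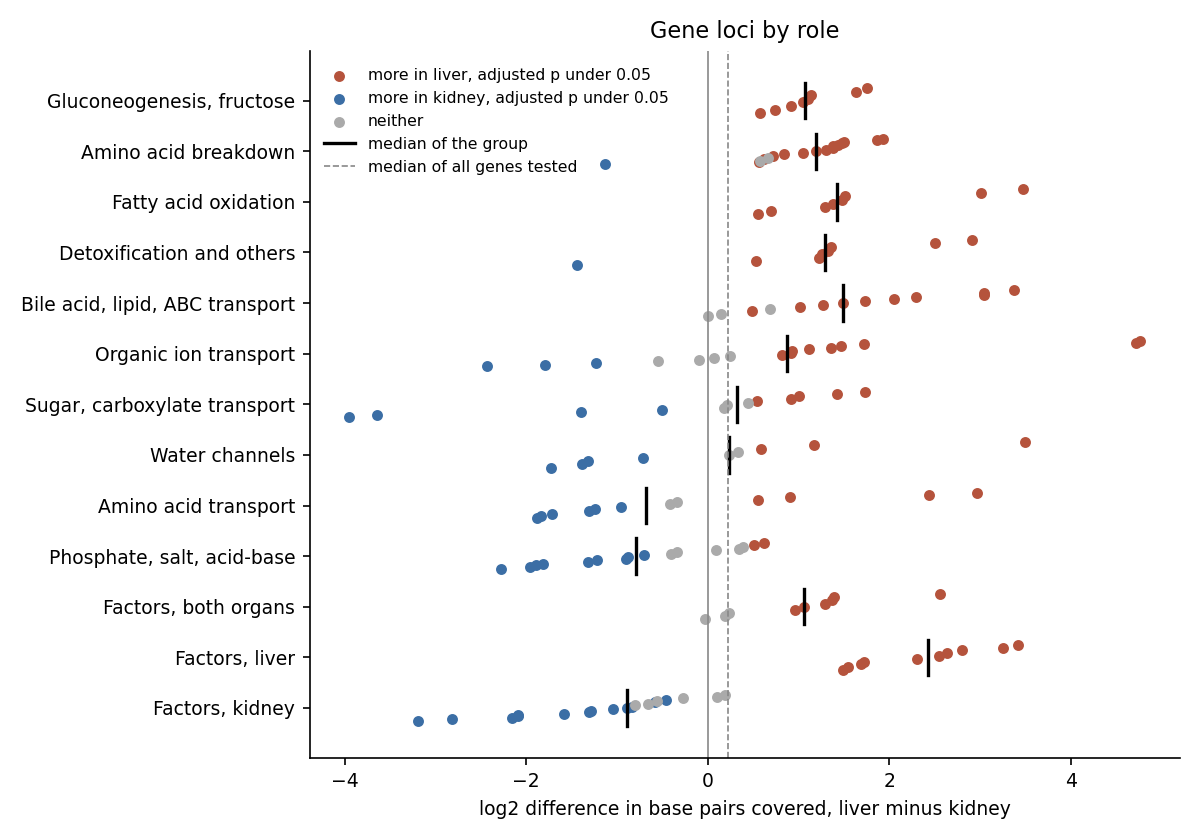
Log2 difference in covered base pairs, liver minus kidney, for each listed gene by role; points are genes, coloured by the organ they were called for and grey where neither, black bars are group medians, and the dashed line is the median over all genes tested, 0.22. The bars of the metabolic roles lie between 1.08 and 1.43, and those of amino acid transport and of phosphate and salt transport at −0.68 and −0.79.

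Transporter loci were called for either organ. Of 78 transporter genes, 33 were called for liver, 26 for kidney and 19 for neither. Over all genes tested, 33.0% were called for liver and 13.4% for kidney. The median log2 difference of the transporter genes was 0.24, near the 0.22 over all genes. Scaled, their calls were 30, 33 and 15, against 24.7% of all genes tested called for liver and 28.3% for kidney. Liver-only sites were found at 48 (61.5%), kidney-only sites at 54 (69.2%) and both at 29 (37.2%). The shares of all genes were 49.3%, 38.7% and 24.0%. The transporter genes were longer, with a median span of 27.5 kb against 17.6 kb, and the part of gene length in these shares was not tested. Among bile acid, lipid and ABC transporters 10 of 13 were called for liver and 0 for kidney, while among carriers of phosphate, sodium, acid and base 2 of 16 were called for liver and 9 for kidney. Scaled, the former had 9 liver calls and 1 kidney call, and the latter 2 and 11.

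Both organs carry organic ions across their membranes. Of 16 such carriers 9 were called for liver and 3 for kidney, against 33.0% and 13.4% of all genes tested. With scaled totals the counts were 9 and 5, against 24.7% and 28.3% of all genes tested. Slco1b2 (chr6:141629518-141686646), which takes up bilirubin and bile acids into hepatocytes, was covered by 31880, 20398, 9732, 13191 and 21560 bp in liver and 534, 408, 691, 555 and 646 bp in kidney. Every liver set was above every kidney set, and the means differed 34.1-fold (4.77 ± 0.26, adjusted p = 4.02e-07). Its neighbour Slco1a1 was covered by 3728 to 5484 bp in liver and by 135, 0, 0, 134 and 203 bp in kidney. Slc22a12, the urate exchanger URAT1, had 2926, 1242, 1192, 1799 and 936 bp in liver and 4986, 4261, 6508, 7792 and 4309 bp in kidney, with 5 kidney-only sites and no overlap (−1.79 ± 0.22, adjusted p = 7.98e-05). Slc22a2, the organic cation transporter OCT2 of the tubule, had a log2 difference of −2.43.

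Slc22a8, the organic anion transporter OAT3, held sites of both classes, 3 liver-only and 4 kidney-only. It was covered by 8706, 4484, 4012, 4574 and 4167 bp in liver and 5460, 6463, 4504, 5395 and 4958 bp in kidney, and only B6x129 liver exceeded the kidney sets. The difference did not pass the test (−0.10 ± 0.18, adjusted p = 0.678). Scaled to the same total it was −0.38 and called for kidney (adjusted p = 0.0303), as with windows of 1 kb (−0.41, adjusted p = 0.0426), whereas windows of 50 kb turned its sign (0.11).

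Bile acid carriers were among the most liver-biased. Slc10a1 (chr12:80953183-80968705), the sodium-taurocholate cotransporter NTCP, was covered by 31465, 29614, 17767, 14761 and 7971 bp in liver and 2388, 1803, 2017, 2510 and 1882 bp in kidney, without overlap (3.05 ± 0.25, adjusted p = 4.53e-06). Slc27a5, Abcb4 and Abcc2 had log2 differences of 3.37, 3.05 and 2.30. Abcb11, the bile salt export pump, held 9 liver-only and 2 kidney-only sites (1.74). The 3 members called for neither organ were Slc10a2 (0.69), Abcc4 (0.00) and Abcg2 (0.14), and Abcc4 held 4 liver-only and 7 kidney-only sites.

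Sugar and carboxylate transporters were divided, with 5 of 12 called for liver and 4 for kidney, beside 33.0% and 13.4% of all genes tested. With scaled totals the counts were again 5 and 4, beside 24.7% and 28.3% of all genes tested. Slc2a2, the glucose transporter GLUT2 of both organs, was covered by 34479, 30101, 11865, 13615 and 10912 bp in liver and 5341 to 7630 bp in kidney, with 0 sites of either class (1.43 ± 0.24, adjusted p = 0.00068). Slc5a2, the tubular glucose cotransporter SGLT2, was covered by 1179, 550, 705, 564 and 195 bp in liver and 1635, 1765, 1680, 2132 and 1181 bp in kidney. B6x129 liver came just below the lowest kidney set (−1.39 ± 0.26, adjusted p = 0.00105), and with windows of 50 kb the call was lost (−0.055, adjusted p = 0.800). Slc5a12 (chr2:110597298-110647779), a lactate carrier of the proximal tubule, was covered by 203, 105, 75, 164 and 0 bp in liver and 3245, 2045, 2469, 2638 and 1661 bp in kidney. Its kidney mean was 22.0-fold the liver mean (−3.65 ± 0.23, adjusted p = 9.95e-07), and its start was open in all kidney sets and no liver set. Slc5a8, its paralog, had a log2 difference of −3.95.

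Amino acid transporters leaned to kidney, with 6 of 12 called for it, 4 for liver and a median log2 difference of −0.68. Of all genes tested, 13.4% were called for kidney and 33.0% for liver. With scaled totals 8 of the 12 were called for kidney and 3 for liver, against 28.3% and 24.7% of all genes tested. Slc6a19 (chr13:73679745-73704865), the neutral amino acid transporter of the brush border, was covered by 2264, 1819, 1905, 1690 and 3212 bp in liver and 7092, 7953, 8475, 8468 and 8414 bp in kidney, and held 8 kidney-only and 0 liver-only sites. The organs did not overlap (−1.88 ± 0.17, adjusted p = 8.69e-06). Slc7a9, part of the cystine transporter, had 880 to 1601 bp in liver and 3241 to 5389 bp in kidney, with 4 kidney-only sites (−1.72 ± 0.20, adjusted p = 4.61e-05). On the liver side, Slc38a4 was covered by 41589, 44044, 15234, 32314 and 22140 bp in liver and 2041 to 5113 bp in kidney (2.97 ± 0.26, adjusted p = 6.63e-06), and Slc16a10 held 12 liver-only sites. Slc1a1 (−0.95), with sequences shown above, held 4 kidney-only sites, and Slc7a7, a cationic amino acid exchanger (−0.41, called for neither organ), held 1.

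Carriers of phosphate, sodium, chloride, acid and base were the transporter role with the most kidney calls, 9 of 16. Their median log2 difference was −0.79, and the share called for kidney over all genes tested was 13.4%. With scaled totals 11 of the 16 were called for kidney, against 28.3% of all genes tested. Slc9a3 (chr13:74121457-74169442), the sodium-proton exchanger NHE3, was covered by 2321, 2077, 1519, 1689 and 1496 bp in liver and 6445, 7071, 8589, 8261 and 6100 bp in kidney, and held 10 kidney-only and 0 liver-only sites. The organs did not overlap (−1.95 ± 0.17, adjusted p = 8.44e-06). Slc12a1, the loop-segment cotransporter NKCC2, had 594 to 1894 bp in liver and 2716 to 5744 bp in kidney (−1.81 ± 0.23, adjusted p = 0.000103). Bsnd, the barttin subunit of renal chloride channels, had 528 to 893 bp in liver and 3205 to 4584 bp in kidney, with 8 kidney-only sites (−2.27 ± 0.17, adjusted p = 2.72e-06), but with windows of 50 kb its difference was 0.11.

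Slc34a1, the phosphate cotransporter of the proximal tubule, varied among kidney sets, which had 5199, 8528, 21971, 22124 and 8620 bp against 6066, 4351, 4875, 3170 and 4467 bp in liver. B6x129 kidney lay within the liver range (−1.32 ± 0.33, adjusted p = 0.00753), and the call was lost with windows of 50 kb (−0.27, adjusted p = 0.189) and without the filter (adjusted p = 0.0736). Scnn1a, in contrast to most of its role, was covered more in liver (0.62) and held 1 site of each class.

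Among 9 water channels 3 were called for liver and 4 for kidney, against 33.0% and 13.4% of all genes tested. With scaled totals the counts were 2 and 4, against 24.7% and 28.3% of all genes tested. Aqp9 (chr9:71110659-71168682), which carries glycerol into hepatocytes, was covered by 39763, 30632, 12495, 14963 and 21844 bp in liver and 2219, 1902, 1646, 2987 and 1029 bp in kidney, without overlap (3.49 ± 0.26, adjusted p = 2.96e-06). Aqp2 (chr15:99579055-99584547), the vasopressin-regulated channel of the collecting duct, was covered by 1232, 750, 564, 467 and 545 bp in liver and 2299, 3099, 2910, 2033 and 2103 bp in kidney. The kidney sets were all above the liver sets (−1.73 ± 0.22, adjusted p = 0.000108), and the start was open in kidney alone. Aqp1, of the proximal tubule and of vessels, overlapped between organs (−0.72 ± 0.16, adjusted p = 0.00385), and its call was lost with windows of 50 kb (−0.10, adjusted p = 0.611).

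**Figure D4:**
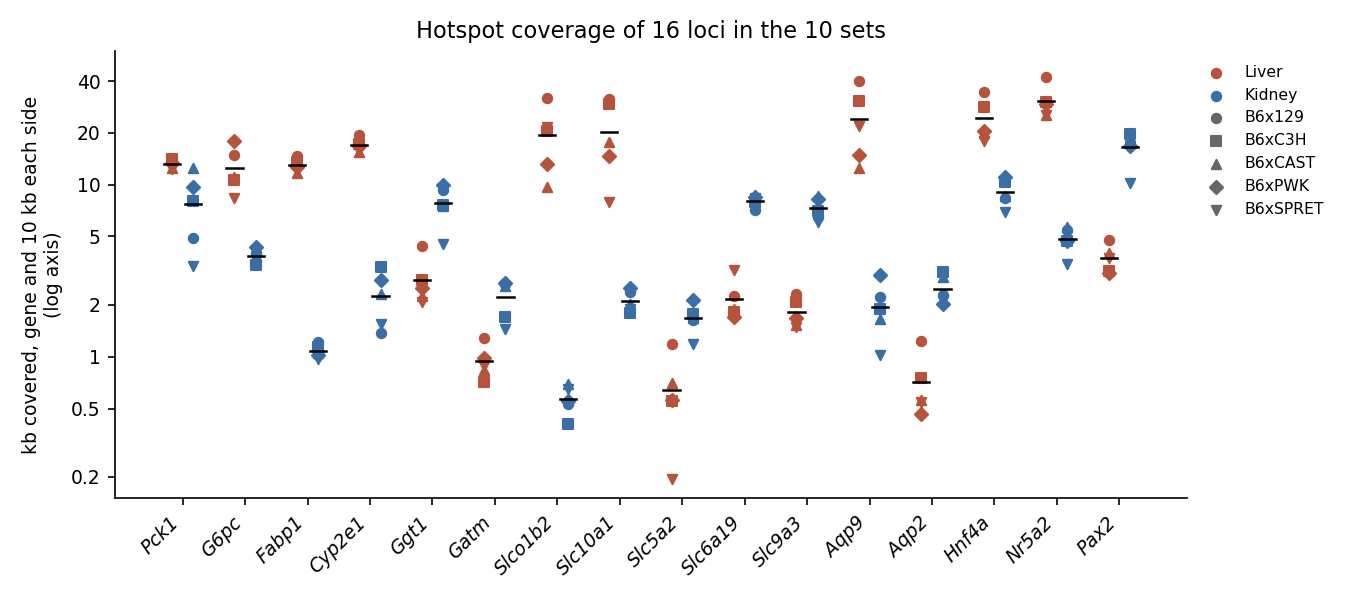
Kilobases covered by hotspots in 16 genes and 10 kb on each side (log axis) in the 10 sets; colour marks the organ, shape the hybrid, and bars the organ means. Slc10a1 spans 7971 to 31465 bp in liver and stays at or below 2510 bp in kidney, while Pck1 overlaps between organs.

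Loci of transcription factors mostly followed the organ in which the factor is best known. The factors were listed with earlier results of these data known, so their counts are a description. Of all genes tested, 33.0% were called for liver and 13.4% for kidney. Of 10 factors noted in liver all 10 were called for liver (median log2 difference 2.43), of 19 noted in kidney 13 were called for kidney and 0 for liver (median −0.89), and of 9 used in both organs 6 were called for liver and 0 for kidney (median 1.06). Scaled, 16 of those noted in kidney were called for kidney, against 28.3% of all genes tested. The 10 liver calls stayed, and the factors of both organs had 6 liver calls and 1 kidney call. Hnf4a (chr2:163506808-163572910), a nuclear receptor central to hepatocytes and proximal tubule, was covered by 34561, 28357, 19992, 20387 and 18023 bp in liver and 8317, 10322, 8579, 11095 and 6891 bp in kidney, with 8 liver-only sites and 1 kidney-only site. The organs did not overlap (1.39 ± 0.16, adjusted p = 5.05e-05). The annotated 5′ end of Hnf4a was open in all liver sets and no kidney set, although kidney hotspots covered the locus.

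Nr5a2 (chr1:136842571-136960448), the bile acid regulator LRH-1, held 21 liver-only sites and 1 kidney-only site. It was covered by 42447, 30237, 25334, 29268 and 25353 bp in liver and 5476, 4727, 5671, 4732 and 3441 bp in kidney, without overlap (2.63 ± 0.14, adjusted p = 4.02e-07). Prox1 held 15 liver-only and 0 kidney-only sites and was covered by 20059, 25550, 16670, 17223 and 14630 bp in liver and 2769, 1868, 2423, 6986 and 1221 bp in kidney (2.80 ± 0.28, adjusted p = 1.81e-05). Onecut1, which encodes HNF6, was covered by 7468 to 15404 bp in liver and 1826 to 2512 bp in kidney (2.31 ± 0.17, adjusted p = 2.87e-06).

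Pax2 (chr19:44756045-44837871), needed to form the nephron, was covered by 4792, 3159, 4024, 3077 and 3763 bp in liver and 17132, 19720, 18941, 16728 and 10265 bp in kidney, with 8 kidney-only sites and no overlap (−2.09 ± 0.17, adjusted p = 5.44e-06). Pou3f3 (chr1:42695768-42703176), a factor of the loop and distal nephron, was covered by 1838, 1744, 1619, 1256 and 1157 bp in liver and 1796, 26508, 25718, 21621 and 23164 bp in kidney. B6x129 kidney stood within the liver range and apart from the other kidney sets (−3.19 ± 0.50, adjusted p = 0.00039). That set pools 2 libraries and holds the most hotspots of the kidney sets, 232440. Of the kidney sets it also had the lowest share of hotspots at the score ceiling, 3.40%. The share of its covered length in hotspots of at least 2 kb was the lowest too, 2.49%. The part of these in its value at Pou3f3 was not tested. Tfap2b varied alike, with 4273, 14828, 24629, 13975 and 3522 bp in kidney and 847 to 2282 bp in liver, and its lowest kidney sets were B6xSPRET and B6x129 (−2.82 ± 0.40, adjusted p = 0.000184). Irx3, Gata3, Wt1, Lhx1, Irx2 and Esrrg were called for neither organ, and Esrrg held 21 liver-only and 20 kidney-only sites.

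In 16 pairs of related genes, a form best known from liver was set beside a form best known from kidney or from many tissues. The liver form was called for liver in 14 pairs, and the other form for kidney in 4, for liver in 3 and for neither in 9. Of all genes tested, 33.0% were called for liver and 13.4% for kidney. In all 16 pairs the log2 difference of the liver form was the higher. The pairs were chosen with earlier results of these data known, so their counts are a description. Opposite calls were found in 4 pairs, among them Arg1 (3.29) and Arg2 (−1.01), Aqp9 and Aqp2, and Cyp27a1 (2.09) and Cyp27b1 (−0.82). Scaled to the same total, 8 pairs had opposite calls. The widest gap was that of methionine adenosyltransferase, where Mat1a was at 5.83 and Mat2a at −0.33.

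The genes with the largest log2 differences were ranked among well-covered loci. Toward liver they were Tdo2, tryptophan dioxygenase (6.51), Sult2a8 (6.44), Csrp3 (6.29), Mug1 (6.18), Mup3 (6.14), Hamp, which encodes the iron hormone hepcidin (6.14), Dnase2b (6.11), Cyp2a12 (5.85), Mat1a (5.83) and Cyp7a1, the rate-limiting enzyme of bile acid synthesis (5.80). Tdo2 was covered by 22264, 23536, 11412, 3799 and 13806 bp in liver and by 421 bp in B6xSPRET kidney and 0 bp in the other kidney sets. Hamp and Mup3 had 0 bp in all 5 kidney sets, so their fitted values depend on the 100 bp added and are no fold change. Dnase2b shares part of its window with Uox.

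Toward kidney the ranking gave Hoxb2 (−3.80), Hoxb3 (−3.79), Hoxa9 (−3.74), Hoxb9 (−3.65), Hoxb7 (−3.61), Hoxa7 (−3.60), Slc51a, a steroid and bile acid transporter subunit (−3.59), Hoxb8 (−3.59), Bend5 (−3.53) and Il5ra (−3.52). Hox genes lay out the body axis in the embryo, and the 7 named here fall in 2 clusters, on chromosomes 6 and 11, where windows of neighbours overlap. Hoxb3 was covered by a mean of 1401 bp in liver and 19607 bp in kidney, and Hoxa9 by 1222 and 17670 bp.

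By the number of organ-restricted sites, long genes led. Gm20388 (138 liver-only and 94 kidney-only sites), Fgfr2 (47 and 70) and Gm37240 (38 and 26) are annotated over several neighbouring genes. Sox5 held 45 liver-only and 9 kidney-only sites, Immp2l 39 and 2, Foxn3 37 and 3, Foxp1 35 and 7, Zbtb20 35 and 5, Magi1 34 and 8 and Ptprg 35 and 23. Toward kidney, Glis3, a factor mutated in cystic kidney disease, held 3 liver-only and 34 kidney-only sites, Auts2 14 and 33, Lrmda 9 and 32, Pde4d 25 and 28, Mast4 3 and 27 and Ank3 8 and 23. Glis3 was covered by a mean of 10088 bp in liver and 32902 bp in kidney (−1.75 ± 0.15, adjusted p = 5.75e-06), and Sox5 by 60007 and 18761 bp (1.66 ± 0.13, adjusted p = 3.98e-06).

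Defining markers of each organ were checked, beside 33.0% of all genes tested called for liver and 13.4% for kidney. With scaled totals those shares were 24.7% and 28.3%. All 15 autosomal hepatocyte markers, Alb, Apob, Ttr, Cps1 and F2 among them, were called for liver with a median log2 difference of 3.45 and no overlap of the organs, and their summed coverage ran from 184 to 289 kb in liver sets and 20.3 to 26.5 kb in kidney sets. Of 15 kidney markers 8 were called for kidney (among them Umod, Miox, Kl, Calb1, Kap, Cyp27b1 and Cyp24a1), 4 for liver (Nphs1, Ren1, Ptgds and Wnk1) and 3 for neither (Cdh16, Lrp2 and Cubn). With scaled totals 11 were called for kidney, with Cdh16, Lrp2 and Cubn now among them, 2 for liver (Ren1 and Ptgds) and 2 for neither (Nphs1 and Wnk1). Their summed coverage was 51.2 to 84.6 kb in liver and 50.3 to 73.8 kb in kidney, so it did not separate the organs. Kap, the androgen-regulated kidney protein, had 0 bp in every liver set and 2 kidney-only sites. Ren1, renin, was covered by 14351, 9540, 6932, 8092 and 9945 bp in liver and 1724, 1207, 2009, 2597 and 1585 bp in kidney, its start was open in no set, and its window reaches into Etnk2 (1.93).

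Markers of other cells that either organ holds were called in part, and their counts are set beside 33.0% of all genes tested called for liver and 13.4% for kidney, or 24.7 and 28.3% with scaled totals. Of 6 endothelial markers 3 were called for kidney (Kdr, Tek and Emcn, −0.76 to −2.39) and 0 for liver, with summed coverage of 14.6 to 41.4 kb in liver and 24.8 to 38.8 kb in kidney. Of 6 macrophage and blood markers 3 were called for liver (Adgre1, Clec4f and Spi1) and 0 for kidney, summing to 15.4 to 23.9 kb and 12.4 to 16.4 kb, and Clec4f, the marker of Kupffer cells, had 0 bp in 4 kidney sets. Of 4 duct epithelium markers Krt7, Krt19 and Epcam were called for kidney (−3.26, −2.86 and −2.47), summing with Sox9 to 3.71 to 6.78 kb in liver and 9.61 to 14.5 kb in kidney. Of 6 mesenchymal markers Pdgfrb was called for kidney (−0.73) and the others for neither, summing to 17.8 to 34.3 kb and 20.8 to 26.3 kb. With scaled totals, 4 mesenchymal (Pdgfrb, Col1a1, Des and Lrat), 4 endothelial (Cdh5 in addition) and 2 macrophage and blood markers (Csf1r and Ptprc) were called for kidney, and the duct marker calls stayed at 3. The part of cell mix in the loci described above was not tested.

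Motif content was compared next. In hotspots without a hotspot of the other organ in the same hybrid, 7 of 20 motifs were denser in liver and 7 in kidney (exact permutation test over all splits, adjusted over the 20 motifs), and 18 of the 20 are described here. Toward liver, HNF6 sites (ATCGAT) had the widest gap, with 0.0586, 0.0650, 0.0797, 0.0746 and 0.0768 matches per kb in liver and 0.0165, 0.0181, 0.0188, 0.0188 and 0.0175 in kidney. Every liver set lay above every kidney set, and the means of 0.0709 ± 0.00882 and 0.0179 ± 0.000976 (n = 5 each) differed 3.96-fold, with an exact permutation p of 0.00794, adjusted 0.0122. The autosomes as a whole had 0.0426 matches per kb, so liver-restricted hotspots were above and kidney-restricted hotspots below the genome.

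The other motifs denser in liver were FOXA (TGTTTAC, 1.71-fold), ESRR (TCAAGGTCA, which NR5A2 also binds, 1.57-fold), CEBP (TTGCNNAA, 1.56-fold), the motif of GATA factors (with AGATAA, 1.39-fold), the PPAR-RXR DR1 element (GGTCAAAGG, 1.34-fold) and NFY (CCAAT, 1.31-fold). FOXA stood at 0.270 matches per kb in liver and 0.157 in kidney, against 0.157 over the autosomes. Over the whole length of these hotspots, GATA and NFY were below the autosomes in both organs. Liver and kidney had 0.682 and 0.490 against 0.740 for GATA and 1.73 and 1.33 against 1.80 for NFY. The centres of liver-only sites were above the autosomes for both motifs, as given below. Toward kidney, TEAD (ACATTCC) had 0.137, 0.139, 0.134, 0.135 and 0.145 matches per kb in liver and 0.318, 0.284, 0.270, 0.282 and 0.292 in kidney. The organs did not overlap, with means of 0.138 ± 0.00441 and 0.289 ± 0.0179 (n = 5 each, exact permutation p = 0.00794). PAX2-PAX8 (GCGTGAC), GRHL-TFCP2L1 (AACCGG), SP-KLF (GGGCGGG) and ETS (CCGGAAGT) were also denser in kidney, each with an exact permutation p of 0.00794 (adjusted 0.0122).

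AP-1 (TGANTCA) was denser in kidney by a small margin, 0.401 ± 0.0138 against 0.436 ± 0.0147 per kb (n = 5 each, exact permutation, adjusted p = 0.0227), and lost its call without B6x129, without B6xC3H or without B6xPWK. The motifs of the nuclear receptor HNF4A (CAAAGTCC), of the nuclear factor I family (CTTGGCA), of the insulator protein CTCF (AGGGGGCGC) and of the cilia-gene regulators of the RFX family (GTTGCCATG) did not pass, nor did the motif of HOXB13-type HOX factors. HNF4A matches, which can share bases with DR1, stood at 0.1001 ± 0.0110 in liver and 0.104 ± 0.0103 in kidney (n = 5 each, exact permutation, adjusted p = 0.672), both above the 0.0397 of the autosomes. Organ-restricted hotspots differed in GC content as well, 45.9 ± 0.433% in liver and 47.4 ± 1.16% in kidney (n = 5 each, exact permutation p = 0.0159), and the part of GC content in the motif differences was not tested. Exchanged within hybrids, every adjusted p was at least 0.0893, since 5 hybrids cannot give less than 0.063 before adjustment, and all 5 hybrids had the direction of the mean for each of the 14 motifs. Over all hotspots, 6 motifs were denser in liver and 7 in kidney by the exact permutation test over splits. There DR1 (1.10-fold, adjusted p = 0.159) and AP-1 (adjusted p = 0.224) did not pass that test. CTCF did, with 0.0264 matches per kb in liver and 0.0328 in kidney (exact permutation, adjusted p = 0.0122).

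**Figure D5:**
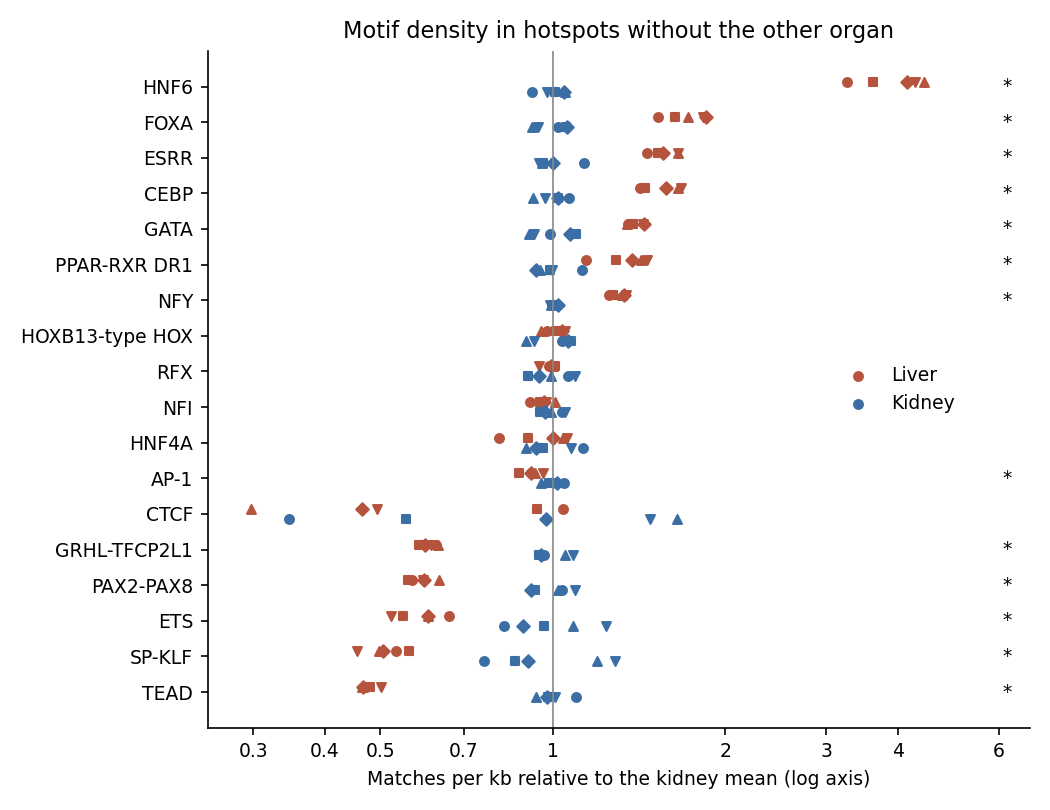
Matches per kb of 18 motifs in hotspots without the other organ, divided by the kidney mean (log axis); each point is a set, colour marks the organ and shape the hybrid (circle B6x129, square B6xC3H, upright triangle B6xCAST, diamond B6xPWK, inverted triangle B6xSPRET), and stars mark the 13 of them that passed. HNF6 lies far to the right in all 5 liver sets, at a mean of 3.96, and TEAD far to the left, at 0.477.

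The same contrast was seen in the central 200 bp of the sites themselves. ATCGAT was found in 2.29% of liver-only, 0.294% of kidney-only and 0.635% of shared sites, against 0.821% of all autosomal windows of that length. TGTTTAC was found in 7.21%, 2.84% and 3.23%, and TTGCNNAA in 18.7%, 9.55% and 9.11%. ACATTCC stood at 2.65%, 7.40% and 3.16%. AACCGG was commonest in shared sites, at 3.11%, and stood at 1.45% in liver-only and 2.60% in kidney-only sites. AGATAA was found in 13.99% of liver-only, 8.24% of kidney-only and 8.31% of shared sites, against 13.17% of autosomal windows. CCAAT was found in 31.01%, 22.31% and 22.93%, against 29.07%. For these 2 motifs liver-only sites were thus above the autosomal windows at their centres, and kidney-only sites below.

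Hotspots of at least 2 kb, a width chosen after the values had been seen, were described as well, because the covered length of a locus depends on them. They numbered 7426, 5557, 1590, 1817 and 1367 in liver and 793, 1876, 2249, 1518 and 791 in kidney, and the organs overlapped (exact permutation p = 0.167, within hybrids 0.25, n = 5 each). B6x129 and B6xC3H liver stood above the rest, with 18.2 and 17.3% of their covered length in such hotspots against 4.66 to 5.45% in the other liver sets. At 685 regions every liver set had a broad hotspot, of which 166 were broad in every kidney set too and 219 in none; for kidney the numbers were 328, 166 and 16.

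The 219 regions broad in every liver set and no kidney set included a stretch of 8664 to 17980 bp at Ahsg, which encodes the plasma protein fetuin-A, 4369 to 4598 bp at Alb and at least 3800 bp at Tat, and lay also at Plg, Apoa1 and Apoc3, Fgb, Slc38a3, Cyp2e1 and Prox1. At Alb, Tat and Slc38a3 the kidney sets had 0 bp in the region. The 16 kidney counterparts included Hoxb2 and Hoxb3 (2977 to 17484 bp), Atp1b1, the beta subunit of the sodium pump, Prss8, a protease that activates the epithelial sodium channel, Ovol1 and Wls. Regions broad in all 10 sets included Id2, Jun and Smarca2.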

How the data were processed

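DNase-seq libraries of 5 liver and 5 kidney conditions were analysed through 10 hotspot files, with sample groups taken from the strain and tissue labels. Reads had been trimmed with Trimmomatic v0.33 and mapped with BWA v0.7.13 to mm10, uniquely mapping reads were kept, libraries of a hybrid and organ were pooled, and hotspots were called by the authors with hotspot2 v2.1.1 at an FDR of 5%. The deposited score of a hotspot is the −log10 of its FDR, with a ceiling of 100, and was used to rank and filter within a set. Since replicates were pooled, spread was measured between hybrids, and precision rests on 5 sets per organ. Read depth per set is not in the files. Since only uniquely mapping reads were kept, the coverage of near-identical gene copies, such as those of the Mup, Cyp2 and Cyp3a families, is uncertain.

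Hotspots of the autosomes that overlapped by at least 1 bp were merged into sites. Genes were the protein-coding genes of GENCODE vM21, and 226 of 228 listed symbols lay on autosomes. Base pairs covered in a gene and 10 kb on each side were tested with limma 3.58.1 on log2(bp + 100), with organ and hybrid in the model, eBayes with a trend, genes with a hotspot in at least 3 of 10 sets, and Benjamini-Hochberg adjustment over 19573 genes. The hybrid given in the labels pairs the sets, which the Jaccard index of matched against unmatched sets was used to check. Single measures were tested by exact permutation over all splits of the 10 sets. Motifs were matched on both strands of GRCm38, and 1044 of 1044 RefSeq promoters of chromosome 19 were found unchanged at their coordinates in it. The limma step was tested on simulated data first. Genes were named by list, by related pair, and per organ as the 10 with the most organ-restricted sites and the 10 called genes with the largest log2 difference among those with a mean of at least 3000 bp in the higher organ. The comparison, the lists, the pairs and the motifs were chosen with earlier results of these data known. Broad hotspots and the sequences shown were chosen after the values had been seen. Alternatives were FDR 1%, equal numbers of hotspots, other windows, pseudocounts and filters, scaled totals, hotspot counts, the test within hybrids and leaving out each hybrid. Lung and B cell sets were not used. Some listed genes and 2 of the 20 motifs were tested with the rest but are not reported here. Python 3.11.15, numpy 2.4.6, matplotlib 3.10.9 and R 4.3.3 were used.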

Additional observations from a re-analysis of the deposited data

Results flagged for a closer look

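In 154 groups of 5 sets, the highest or lowest set was compared with the rest by Dixon's ratio of its gap to the range of the group, with a critical value of 0.71. It was passed in 15 groups, and chance alone passes about 1 in 20. Among measures of whole sets, B6xSPRET kidney covered the least, 62.1 Mb against 77.2 to 83.1 Mb in the other kidney sets, and B6xSPRET liver had the lowest share of hotspots at the score ceiling, 8.97% against 13.03 to 14.3%. B6x129 liver had 160757 hotspots without a kidney hotspot of its hybrid, against 110085 to 119704 in the other liver sets. B6xCAST liver had the highest GC content of the liver sets, 49.8% against 48.4 to 48.8%, and B6xCAST kidney the lowest median width of hotspots without a liver hotspot, 202 bp against 213 to 217 bp.

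At gene loci in liver, B6x129 was the highest set at Slc22a8 (8706 bp against 4012 to 4574 bp), Nr5a2 (42447 bp against 25334 to 30237 bp) and Krt7 (357 bp against 118 to 149 bp), and B6xSPRET was the lowest at Fbp1 (7634 bp against 28453 to 35443 bp). In kidney, B6x129 was the lowest at Pou3f3 (1796 bp against 21621 to 26508 bp), and B6xPWK the highest at Prox1 (6986 bp against 1221 to 2769 bp). B6xCAST kidney was the highest at Krt7 (3981 bp against 1898 to 2335 bp) and at Cyp3a25 (841 bp against 477 to 532 bp). B6xSPRET kidney was the single kidney set with covered base pairs at Tdo2 (421 bp) and at Clec4f (79 bp).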

How the results depend on the processing

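Counts of liver-only, kidney-only and shared sites and of genes covered more in liver stayed within 1.5 times under every alternative tried, and genes covered more in kidney did so except with scaled totals (5546 against 2621). Genes called ranged from 4828 to 8026 for liver. With no hybrid term in the model, 6236 genes were called for liver and 2409 for kidney. With the hybrid as a block, organ labels exchanged within hybrids gave an overlap difference of −6.44 points (exact permutation p = 0.125), a gene start difference of −1.09 points (exact permutation p = 0.063) and 0 motifs denser in liver and 0 in kidney, both over all hotspots and over hotspots without the other organ, since no adjusted p of that test can pass. Under FDR 1%, the matched Jaccard difference was 0.00776 (exact permutation p = 0.0583) and the gene start difference −1.01 (exact permutation p = 0.0714). With 150000 hotspots per set, they were 0.00562 (p = 0.142) and −0.568 (p = 0.0556), and the overlap difference was −1.64 (p = 0.373), by the same exact permutation tests. As a share of the smaller set the matched difference was 0.00143 (exact permutation p = 0.558), and with 5 kb either side the gene start difference was −0.440 (exact permutation p = 0.548). Away from gene starts, the motif difference turned for HOXB13-type HOX (−0.00299), not past the test. Windows of 50 kb turned Slc22a8 (0.11) and Bsnd (0.11), and the number of hotspots Pck1 (−0.042). Leaving out each hybrid in turn left 4 sets an organ, with a smallest p of 0.0286 for the tests over splits. That limit is not the one of the Jaccard test over pairings or of limma. The matched Jaccard difference was then 0.00262 to 0.0108, the overlap difference −8.11 to −3.79 and the gene start difference −1.31 to −0.796. Motif differences were −0.00866 to 0.00350 for HNF4A, −0.000673 to 0.000325 for RFX and −0.0121 to 0.0124 for HOXB13-type HOX. The log2 difference of Slc22a8 was −0.29 to 0.0054. The causes were not tested. Depth limits what can be said of sites missing from a set, since an absent hotspot is one not called at 5% FDR. B6x129 kidney pools 2 libraries, and its 232440 hotspots are the most of the kidney sets. Its share of hotspots at the score ceiling (3.40%) and of covered length in hotspots of at least 2 kb (2.49%) were the lowest of the kidney sets.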

Other observations

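Windows of 1 Mb were ranked by the number of liver-only less kidney-only sites. Toward liver, chr7:26000001-27000000 held 79 liver-only and 2 kidney-only sites and contains Cyp2b and Cyp2a genes, chr12:103000001-104000000 held 85 and 12 with the Serpina genes, chr4:61000001-62000000 held 52 and 0 with Mup genes, chr19:39000001-40000000 held 46 and 1 with Cyp2c genes, chr9:74000001-75000000 held 54 and 10 with Wdr72, Fam214a and Onecut1, chr4:60000001-61000000 held 43 and 1 with further Mup genes, and chr5:145000001-146000000 held 43 and 2 with Cyp3a genes. Lower in that order, chr6:144000001-145000000, with Sox5 and Bcat1, held 48 and 9. Toward kidney, the window chr10:70000001-71000000, with Bicc1 and Ank3, held 5 liver-only and 43 kidney-only sites, chr19:28000001-29000000, with Glis3 and Slc1a1, 8 and 45, chr7:111000001-112000000, with Galnt18, 6 and 35, and chr1:73000001-74000000, with Tns1, 3 and 31. Having been ranked by the difference itself, these windows have no test.

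Annotated starts were compared as well. Of 4516 genes with annotated starts at least 1000 bp apart, 6 had a start open in all 5 liver and no kidney sets and another open in all 5 kidney and no liver sets. This rule is strict, and an open start was not shown to be a used one. The 6 genes were Sh3bp2, Taok3, Mcf2l, Anks1b, Abcg8 and Aqp4. In Taok3, a kinase of the stress response, the starts lay 106872 bp apart, in Mcf2l 69040 bp, and in Abcg8, the sterol exporter that works with Abcg5, 6819 bp.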
